A study of Homo sapiens with 30 samples.

Results

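The 10 genes described here are components and targets of the Notch pathway, namely RBPJ, NOTCH1, NOTCH2, NOTCH3, HES1, HES4, HEY1, HEYL, NRARP and DLL1. They were taken by symbol from the count table of each library and are 10 of the 28307 genes listed there. Their levels were followed in 30 RNA-seq libraries that form 10 groups of 3, all from H9, an established human embryonic stem (hES) cell line. Total RNA depleted of ribosomal RNA was sequenced with a stranded kit, and levels are given as counts per 1000000 counts of the library (CPM).

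Notch receptors are cleaved when a neighbouring cell presents a ligand such as DLL1 or JAG1, and the freed intracellular domain enters the nucleus. There it joins the DNA-binding protein RBPJ and MAML coactivators at target genes, among them the HES and HEY repressors and NRARP, a feedback inhibitor of the pathway. In the absence of cleaved receptor, RBPJ recruits corepressors, including SPEN, together with histone deacetylases. SPEN is also the repressor that XIST RNA, the long noncoding RNA coating the X chromosome, brings to X-linked genes, and for that reason it was depleted in this study.

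PXGL is a medium that holds hES cells in a naive state resembling the preimplantation epiblast. PXGL WT cells carried no deletion, and XIST KO cells carried a homozygous deletion at the XIST promoter. XIST KO was 1 clone sequenced as 3 technical replicates. CRISPRi clones carried a doxycycline-inducible dCas9-KRAB repressor with a guide to the XIST promoter, and were left untreated (CRISPRi UT) or given doxycycline over several days (CRISPRi Dox). The series text gives 3 independent CRISPRi clones, and the labels do not say which library is which clone. PXGL cells transfected repeatedly with a scrambled siRNA (siScr) were the control of cells that received either of a pair of siRNA mixes against SPEN (siSPEN1 and siSPEN2). NaiveCult is another naive conversion protocol, used for NaiveCult WT cells and for XACT KO cells, 3 clones with a deletion over the start sites of XACT, another long noncoding RNA that coats the X chromosome. Primed WT cells were conventional hES cells, which resemble the postimplantation epiblast. Naive cells grew on mouse feeder cells, whose reads the authors filtered out, and primed cells on Matrigel. Apart from XIST KO the study calls its replicates biological, but for most groups nothing says that they were separate clones, so p-values measure the spread between these samples, which may be technical. In these bulk libraries fewer cells of a type and less RNA per cell cannot be told apart.

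Library totals ranged from 31.2 to 65.6 M counts. The targeted genes were lower than in every control library in 6 of 6 XIST-depleted libraries, 3 of 3 XACT KO libraries and 6 of 6 SPEN knockdown libraries. The summed level of 10 naive markers was 2993 to 4116 CPM in the naive libraries and 29.7 to 34.5 CPM in Primed WT. That of 10 primed markers was 152 to 300 CPM and 4294 to 4582 CPM, so the markers followed the labels. Codes carried by the deposited tables put the libraries into 3 sets, one with PXGL WT, XIST KO and the CRISPRi groups, one with the siRNA groups, and one with Primed WT, NaiveCult WT and XACT KO. The labels give no sequencing run, and that the sets may have been made or sequenced apart is inferred from these codes alone.

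RBPJ binds the letters TGGGAA, usually within GTGGGAA. RefSeq promoter windows of GRCh38, running from 250 bases upstream to 50 bases downstream of a start, were searched on both strands for GTGGGAA, of which TGGGAA is a part. It was found in 6.25% of 35116 windows, and TGGGAA in 24.0%. Of the 8 members whose windows were read (12 windows), 4 held GTGGGAA in at least 1 window. That count is by gene, with several windows for RBPJ, and the share of 6.25% is by window. Windows of HEY1 and DLL1 were not read. The 200 bases upstream of their starts are shown because they hold the full motif, HES1, HEYL and HES4 having the widest spread of group means among the members and RBPJ being the factor that binds the motif. They lie in hg38 at chr3:194135948-194136147 on the plus strand (HES1), chr1:1000098-1000297 on the minus strand (HES4), chr1:39639644-39639843 on the minus strand (HEYL) and chr4:26319546-26319745 on the plus strand (RBPJ, one of several starts). Capitals mark GTGGGAA, its reverse complement, or TGGGAA outside it.
HES1: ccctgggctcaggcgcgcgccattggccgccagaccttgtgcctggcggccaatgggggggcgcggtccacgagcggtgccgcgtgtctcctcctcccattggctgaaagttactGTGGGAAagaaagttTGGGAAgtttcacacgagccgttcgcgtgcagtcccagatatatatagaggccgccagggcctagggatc
HES4: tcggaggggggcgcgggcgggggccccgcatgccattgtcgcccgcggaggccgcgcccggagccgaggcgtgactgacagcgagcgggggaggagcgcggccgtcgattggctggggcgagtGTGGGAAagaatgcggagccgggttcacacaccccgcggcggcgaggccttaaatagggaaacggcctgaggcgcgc
HEYL: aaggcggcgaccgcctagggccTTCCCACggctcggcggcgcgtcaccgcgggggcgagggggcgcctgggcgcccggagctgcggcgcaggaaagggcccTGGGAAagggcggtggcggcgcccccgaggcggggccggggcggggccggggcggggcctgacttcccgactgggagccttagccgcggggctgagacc
RBPJ: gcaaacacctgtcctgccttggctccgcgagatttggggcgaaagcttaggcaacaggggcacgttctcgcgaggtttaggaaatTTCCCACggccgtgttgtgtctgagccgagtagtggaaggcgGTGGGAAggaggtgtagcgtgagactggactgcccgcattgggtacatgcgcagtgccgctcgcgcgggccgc
In HES1 the motif began at base -85 from the start and a further TGGGAA at -70. HES4 held a single match at -77. HEYL held GTGGGAA at -178 on the opposite strand and TGGGAA at -99, and the RBPJ window held matches at -115 (opposite strand) and -73. Such matches describe the letters of the window, and no binding was measured. GTGGGAA was not in the windows of NOTCH1, NOTCH2, NOTCH3 and NRARP.

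The levels of the members differed most between naive and primed cells and, within naive cells, between the conversion protocols. Per kilobase of the canonical transcript, RBPJ was at 34.0 to 65.3 CPM per kilobase over the 10 groups. In Primed WT it was followed by HES1 (30.3), NOTCH2 (17.7) and NRARP (15.2), then NOTCH3 (7.25) and NOTCH1 (7.23), whose libraries overlapped, HES4 (2.76) and HEYL (1.60), which also overlapped, and HEY1 (1.33). In PXGL WT the highest member was HES4 (63.7 CPM per kilobase), above RBPJ (48.6), NOTCH1 (9.45), NRARP (6.60), NOTCH3 (3.61), NOTCH2 (2.16) and HEYL (0.743). HEY1 (0.277) and HES1 (0.218) were the lowest detected members there and overlapped. DLL1 was at 0 in every group. Per kilobase of all annotated exons RBPJ was lower, at 11.97 to 23.0 CPM per kilobase, and neighbours in the order changed places. In Primed WT HES1 (23.2) then stood beside RBPJ (23.0), and NRARP (15.2) above NOTCH2 (12.1), and in PXGL WT HES1 (0.167) stood above HEY1 (0.111). By either length HES1 was among the highest members in Primed WT and among the lowest of those detected in PXGL WT, while HES4 was the highest in PXGL WT and among the lower members in Primed WT.

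**Figure D1:**
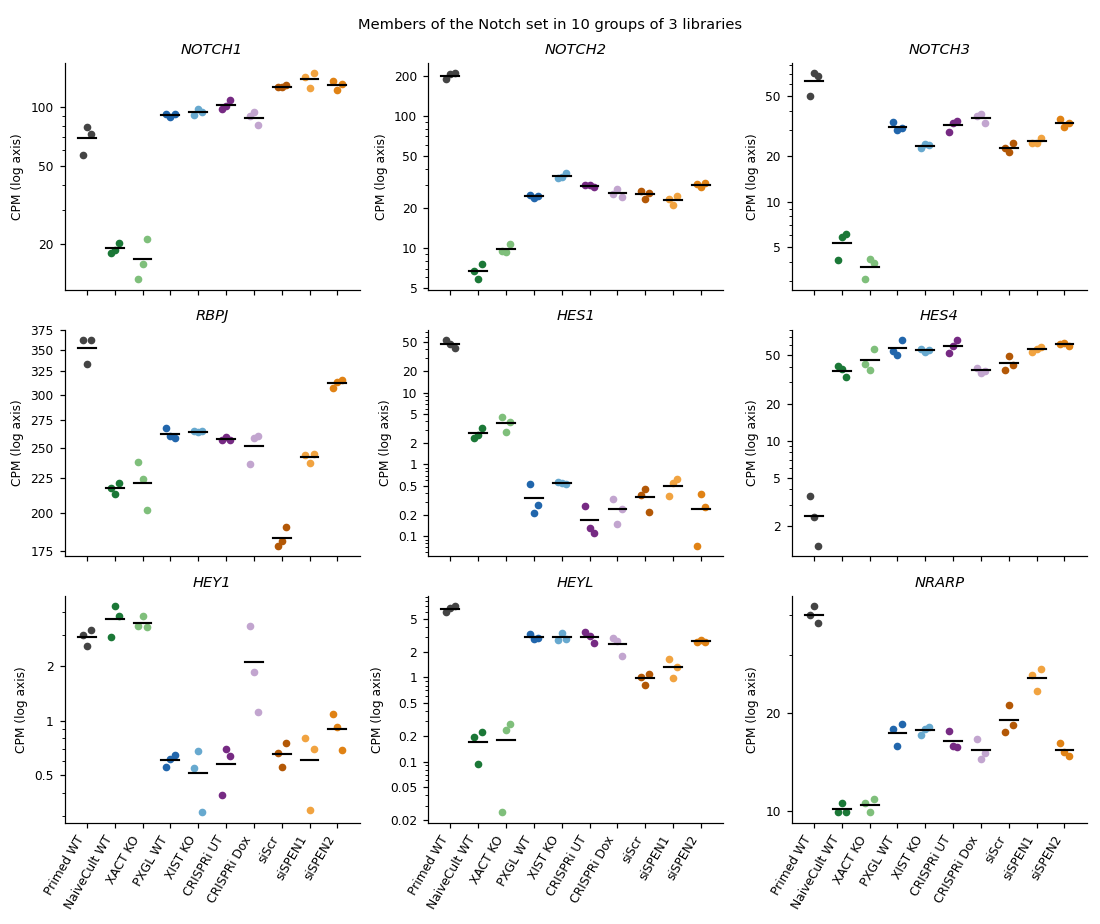
Level of each of 9 members in CPM (log axis) in the 10 groups. Points are libraries and black lines are means of 3. HES1 was at 41.4 to 54.1 CPM in Primed WT and at or below 4.52 CPM in every naive library, whereas HES4 was at 1.39 to 3.56 CPM in Primed WT and at least 32.6 CPM in every naive library.

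SPEN was knocked down to test its part in X-linked expression, and the same libraries show the Notch genes after the loss of an RBPJ corepressor. SPEN itself (chromosome 1, 15836095 to 15940456) was at 376, 283.9 and 330 CPM in siScr, at 152, 159 and 177 CPM in siSPEN1 and at 152, 152 and 167 CPM in siSPEN2. On the log2 scale the change was -1.01 with siSPEN1 and -1.08 with siSPEN2 (SE 0.076 in each, edgeR adjusted p = 9.0e-10 and 4.1e-10). The difference between the mixes was not detectable (-0.07, 95% interval -0.22 to 0.08, edgeR adjusted p = 0.52). Both mixes share the siScr libraries, so their comparisons are not independent. With siSPEN1, 3 of 9 tested members rose and 0 fell, where 20.8% of all 16448 tested genes rose and 22.9% fell. With siSPEN2, 5 rose and 1 fell, where 20.5% rose and 20.7% fell. With siSPEN1 replicate 2 left out, 5 members passed with siSPEN1. The median log2 fold change of the 9 members was 0.39 and 0.45, and that of all tested genes -0.00049 and -0.0048.

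RBPJ rose with each mix. It was at 178, 181 and 190.3 CPM in siScr, at 244, 237 and 245 CPM in siSPEN1 and at 307, 313 and 316 CPM in siSPEN2. The 3 groups did not overlap, and every siSPEN2 library was above every siSPEN1 library. The rise was 1.33-fold with siSPEN1 (log2 0.41, SE 0.045, edgeR adjusted p = 2.1e-07) and 1.69-fold with siSPEN2 (log2 0.76, SE 0.045, edgeR adjusted p = 3.5e-11). The direct test between the mixes gave a log2 difference of 0.345 (SE 0.045, edgeR adjusted p = 3.3e-06). RBPJ lies on chromosome 4, 26163455 to 26435131.

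HES4, a bHLH repressor that primates have and mice lack, also rose with each mix. Its libraries were at 37.6, 48.8 and 41.2 CPM in siScr, 53.0, 55.5 and 57.7 CPM in siSPEN1 and 60.7, 62.5 and 59.2 CPM in siSPEN2. All 6 knockdown libraries were above the 3 controls. The rise was 0.39 (log2, SE 0.069) with siSPEN1 and 0.50 (SE 0.068) with siSPEN2, at edgeR adjusted p of 9.3e-05 and 4.7e-06, and the difference of 0.11 did not pass (95% interval -0.02 to 0.25, edgeR adjusted p = 0.22).

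HEYL, a repressor of the HEY family, was at 0.999, 0.824 and 1.09 CPM in siScr and at 2.66, 2.81 and 2.60 CPM in siSPEN2, with no overlap. This was the single member past 2-fold with a SPEN mix (2.76-fold, log2 1.46, SE 0.21, edgeR adjusted p = 9.9e-06), where 4.24% of tested genes were past it in either direction. In siSPEN1 HEYL was at 1.64, 0.994 and 1.32 CPM, overlapped siScr and did not pass (log2 0.46, edgeR adjusted p = 0.11), though it did without siSPEN1 replicate 2 (log2 0.61, adjusted p = 0.045). Between the mixes the log2 difference was 1.00 (edgeR adjusted p = 0.00066, SE 0.21). No member was past 2-fold with siSPEN1, where 5.08% of tested genes were.

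NRARP moved in opposite directions. It was at 17.5, 21.2 and 18.4 CPM in siScr, rose in siSPEN1 to 26.1, 23.3 and 27.3 CPM (log2 0.44, SE 0.077, edgeR adjusted p = 8.7e-05) and fell in siSPEN2 to 16.2, 15.2 and 14.8 CPM (log2 -0.32, SE 0.078, edgeR adjusted p = 0.0025). Neither knockdown group overlapped siScr. The difference between the mixes was -0.76 (SE 0.078, edgeR adjusted p = 1.4e-07).

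Of the 3 receptors, NOTCH3 and NOTCH2 rose with siSPEN2, and none passed with siSPEN1 in edgeR. NOTCH3 was at 22.5, 21.2 and 24.3 CPM in siScr and at 35.3, 31.3 and 33.4 CPM in siSPEN2, without overlap (log2 0.55, SE 0.069, edgeR adjusted p = 1.7e-06). In siSPEN1 it was at 24.6, 24.5 and 26.4 CPM, above siScr in each library but short of the threshold (log2 0.17, edgeR adjusted p = 0.064), which it passed without siScr replicate 3 (log2 0.23, adjusted p = 0.023). Genes of like transcript length and GC content (8 to 12 kb, GC of 60 to 65%, 35 genes) had a median log2 fold change of 0.22 with siSPEN2 and 0.14 with siSPEN1, and the part of length and GC in the NOTCH3 value was not tested. NOTCH2 rose slightly with siSPEN2, from 27.3, 23.7 and 26.1 CPM to 30.4, 29.2 and 31.3 CPM (log2 0.23, SE 0.069, edgeR adjusted p = 0.011). That call was lost without siScr replicate 2 (log2 0.17, edgeR adjusted p = 0.072) and without siSPEN2 replicate 3 (log2 0.20, edgeR adjusted p = 0.052). With siSPEN1 NOTCH2 was at 23.6, 21.1 and 24.7 CPM (log2 -0.14, edgeR adjusted p = 0.13). NOTCH2 shares near-identical sequence with the NOTCH2NL genes, so its counts are uncertain. NOTCH1, the most abundant receptor in naive cells, was at 125, 125 and 128 CPM in siScr, and its log2 fold change was 0.13 with siSPEN1 (edgeR adjusted p = 0.060) and 0.02 with siSPEN2 (edgeR adjusted p = 0.85). The siSPEN1 value passed with DESeq2 (log2 0.14, adjusted p = 0.045) and without siSPEN1 replicate 2 (log2 0.20, adjusted p = 0.0076).

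HES1 and HEY1 were near the lower end of detection in PXGL cells. HES1 was at 0.218 to 0.453 CPM in siScr, 0.362 to 0.619 CPM in siSPEN1 and 0.0732 to 0.388 CPM in siSPEN2, with overlap in both pairs (log2 0.54 and -0.53, edgeR adjusted p = 0.34 and 0.40). HEY1 was at 0.556 to 0.752 CPM, 0.321 to 0.808 CPM and 0.693 to 1.10 CPM in turn (log2 -0.07 and 0.45, edgeR adjusted p = 0.90 and 0.28). At this depth no change of either gene was detectable.

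**Figure D2:**
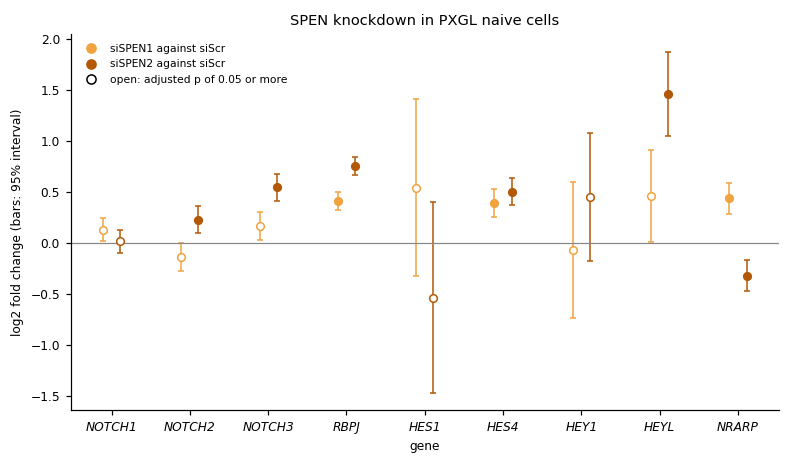
Log2 fold change of 9 members after SPEN knockdown with either siRNA mix against siScr, with 95% intervals from 3 libraries a group. Filled points passed an edgeR adjusted p of 0.05. RBPJ and HES4 were above 0 with each mix, HEYL reached 1.46 with siSPEN2, and NRARP was on opposite sides of 0.

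Between the mixes, 4 members were higher with siSPEN2 (RBPJ, NOTCH2, NOTCH3 and HEYL) and 1 was lower (NRARP), where 18.3% and 16.3% of tested genes were. None was past 2-fold, where 2.50% of tested genes were, HEYL lying just under it. NOTCH1 did not pass (log2 -0.12, edgeR adjusted p = 0.11), but passed without siSPEN1 replicate 2 (log2 -0.17, adjusted p = 0.027) or siSPEN2 replicate 1 (log2 -0.16, adjusted p = 0.048). For NOTCH2 and NOTCH3 the differences were 0.37 (SE 0.070) and 0.38 (SE 0.069), at edgeR adjusted p of 0.00031 and 0.00017. Summed levels of markers of other states differed between the siRNA groups. The 10 primed markers summed to 297 to 300 CPM in siScr, 182 to 196 CPM in siSPEN1 and 216 to 222 CPM in siSPEN2, and 6 neuroectoderm markers to 473 to 497, 313 to 351 and 532 to 576 CPM, with HES5 at 0 in every library. By gene, of 8 tested primed markers 0 rose and 5 fell with siSPEN1, and 3 rose and 4 fell with siSPEN2. Of 4 tested neuroectoderm markers 1 rose and 1 fell, and then 1 rose and 0 fell, with medians of 0.15 and 0.11 (log2). Over all tested genes 20.8% rose and 22.9% fell with siSPEN1, and 20.5% rose and 20.7% fell with siSPEN2. The part of these markers in the values above was not tested.

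The rest of the pathway did not move one way. Of 76 further Notch pathway genes, SPEN among them, 73 were tested. With siSPEN1 18 rose and 22 fell (median log2 -0.07), where 20.8% and 22.9% of all tested genes did. With siSPEN2 15 rose and 18 fell (median 0.0014), where 20.5% and 20.7% did, and the counts by role are to be read against the same shares. Among 25 tested genes of receptor processing and trafficking, 4 rose and 12 fell with siSPEN1 and 2 rose and 9 fell with siSPEN2, a larger share lower than over all genes with each mix. Of 8 coactivators 3 rose and 2 fell with each mix, of 19 corepressors 3 rose and 2 fell with siSPEN1 and 6 rose and 2 fell with siSPEN2, of 9 ligands 4 rose and 2 fell and then 2 rose and 3 fell, and of 12 tested other targets 4 rose and 4 fell and then 2 rose and 2 fell. SPEN, the gene the siRNAs target, is counted among the corepressors and is 1 of the 2 that fell with each mix. MAML2, a coactivator of the cleaved receptor, fell from 5.02 ± 0.144 CPM in siScr (SD, n = 3) to 1.995 ± 0.0846 CPM in siSPEN1 and 2.33 ± 0.465 CPM in siSPEN2 (log2 -1.32 and -1.12, edgeR adjusted p = 1.0e-06 and 5.9e-06). Past 2-fold with siSPEN1 were 7 of these genes, SPEN and MAML2 included, where 5.08% of all tested genes were. Past it with siSPEN2 were SPEN and MAML2, where 4.24% of all tested genes were. The others with siSPEN1 were APH1B, a gamma-secretase subunit (log2 -1.90, edgeR adjusted p = 0.00093), KAT2B, an acetyltransferase (1.43, edgeR adjusted p = 9.8e-06), the noncanonical ligands MFAP5 (-1.25, edgeR adjusted p = 9.6e-06) and DNER (-1.16, edgeR adjusted p = 0.00034), and DTX3L, a ubiquitin ligase (-1.15, edgeR adjusted p = 1.2e-09). KAT2B and DTX3L also differed between the mixes, by -1.07 and 1.04 (edgeR adjusted p = 0.00027 and 9.1e-09).

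**Figure D3:**
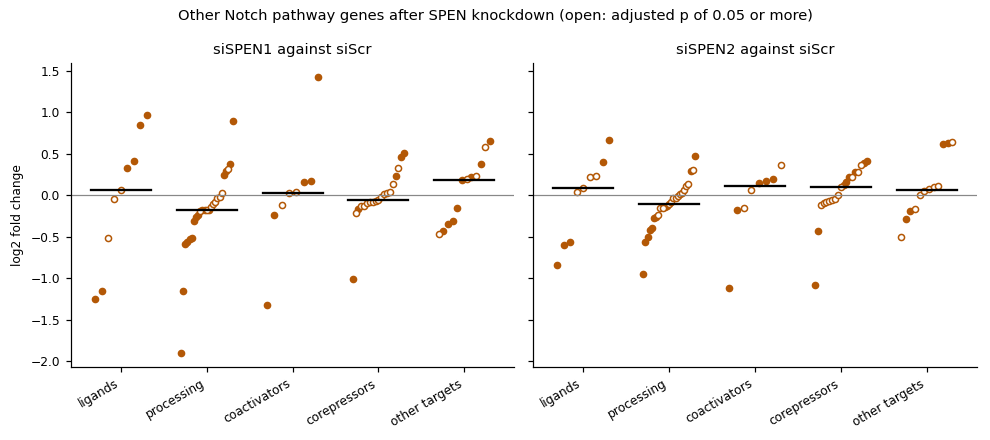
Log2 fold change of the other Notch pathway genes after SPEN knockdown, by role, one point a gene. Black lines are medians and filled points passed an edgeR adjusted p of 0.05. Each role held genes on both sides of 0.

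Loss of XIST was tested in a deletion clone and by CRISPRi, which share no library. No group received doxycycline without the guide to the XIST promoter. In the CRISPRi pair doxycycline, the induced repressor and the loss of XIST therefore cannot be told apart. In XIST KO against PXGL WT 1 of 9 tested members rose and 1 fell, where 6.94% and 5.99% of 17286 tested genes did, and none was past 2-fold, where 1.28% of genes were. NOTCH2 was at 25.2, 24.0 and 24.7 CPM in PXGL WT and at 33.9, 34.3 and 36.8 CPM in XIST KO (log2 0.50, SE 0.053, edgeR adjusted p = 7.8e-07). NOTCH3 was at 33.6, 30.01 and 30.5 CPM and at 22.8, 24.2 and 23.6 CPM (log2 -0.42, SE 0.064, edgeR adjusted p = 9.5e-05). In neither gene did the groups overlap. The median log2 fold change was 0.0090 over the members and -0.0060 over all tested genes. The XIST KO libraries come from 1 clone, so the clone and the deletion cannot be told apart. RBPJ differed little, at 258 to 267 CPM in PXGL WT and 264 to 264.5 CPM in XIST KO (log2 0.01, 95% interval -0.06 to 0.08, edgeR adjusted p = 0.92).

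After doxycycline 1 member rose and 3 fell, where 20.7% and 18.9% of tested genes did. HEY1 rose from 0.390, 0.698 and 0.637 CPM in CRISPRi UT to 3.37, 1.85 and 1.12 CPM in CRISPRi Dox, 3.69-fold (log2 1.88, SE 0.34, edgeR adjusted p = 0.00016). The groups did not overlap, but the treated libraries differed widely among themselves. With CRISPRi Dox replicate 1 left out the value was 1.37 (log2, edgeR adjusted p = 0.0018). HEY1 was the single member past 2-fold, where 3.81% of tested genes were. HES4 fell from 51.4, 58.5 and 66.0 CPM to 39.01, 35.6 and 37.2 CPM (log2 -0.67, SE 0.082, edgeR adjusted p = 2.2e-06), again without overlap. NOTCH1 fell from 96.7, 101 and 108 CPM to 89.9, 93.7 and 80.1 CPM (log2 -0.22, SE 0.047, edgeR adjusted p = 0.00082), and NOTCH2 from 30.2, 29.9 and 28.8 CPM to 25.5, 28.0 and 24.4 CPM (log2 -0.21, SE 0.053, edgeR adjusted p = 0.0041). NOTCH3 was at 29.1 to 34.3 CPM and 33.4 to 37.9 CPM, which overlapped (log2 0.15, edgeR adjusted p = 0.054). It passed without CRISPRi UT replicate 3 (log2 0.21, adjusted p = 0.021) and without CRISPRi Dox replicate 3 (log2 0.20, adjusted p = 0.017). The median over the members was -0.11, against -0.00097 over all tested genes. SPEN fell as well, from 309, 311 and 281 CPM to 208, 281.9 and 245 CPM (log2 -0.31, SE 0.067, edgeR adjusted p = 0.0010), with overlap of the groups. Scatter between replicate libraries, as chi-square per gene against counting noise, was 2.11 to 2.43 in XIST KO and 13.99 to 19.6 in CRISPRi Dox. These groups shared a fit and its estimate of spread. The SE and p-values after doxycycline, and for the deletion minus doxycycline, may therefore be too small. The 6 neuroectoderm markers summed to 381 to 399 CPM in CRISPRi UT and 281 to 318 CPM in CRISPRi Dox, with HES5 at 0 in every library. Under 1 CPM were 3 and 4 of them in turn. Naive markers summed to 3745 to 3855 and 3439 to 3613 CPM, and primed markers to 197 to 203 and 223 to 230 CPM. Trophectoderm markers summed to 340 to 348 and 322 to 332 CPM, and hypoblast markers to 49.0 to 51.3 and 60.5 to 68.0 CPM. Sums of core pluripotency and of feeder fibroblast markers overlapped. The part of the markers in the values of the members was not tested.

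The systems differed by direct test in 5 of 9 members, where 21.8% of tested genes did. The effect of the deletion minus that of doxycycline was 0.71 for NOTCH2 (SE 0.075, edgeR adjusted p = 1.2e-06), 0.61 for HES4 (SE 0.12, edgeR adjusted p = 0.00073) and 0.27 for NOTCH1 (SE 0.067, edgeR adjusted p = 0.0059). It was -0.57 for NOTCH3 (SE 0.089, edgeR adjusted p = 0.00011) and -2.11 for HEY1 (SE 0.52, edgeR adjusted p = 0.0060), the latter past 2-fold as were 2.88% of tested genes. Of NOTCH2 and NOTCH3, the members that passed in XIST KO, NOTCH2 passed in the other direction after doxycycline and NOTCH3 did not pass. The share of all tested genes that passed alike in both systems is not given here.

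**Figure D4:**
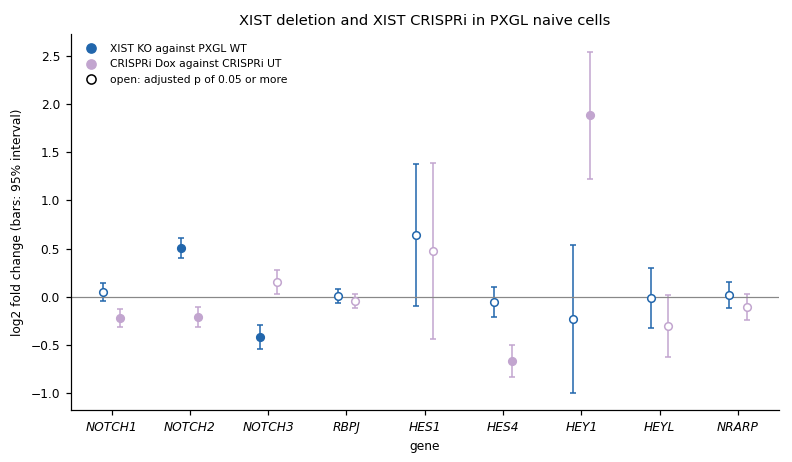
Log2 fold change of 9 members after XIST deletion or XIST CRISPRi, with 95% intervals from 3 libraries a group. Filled points passed an edgeR adjusted p of 0.05. NOTCH2 was at 0.50 in the deletion and -0.21 after doxycycline, and HEY1 at 1.88 after doxycycline had the widest filled interval.

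Of 74 tested pathway genes 4 rose and 3 fell in XIST KO, where 6.94% and 5.99% of all tested genes did. After doxycycline 21 rose and 24 fell, where 20.7% and 18.9% did. Those past 2-fold after doxycycline were DNER (log2 -1.83, edgeR adjusted p = 1.3e-05), APH1B (1.77, edgeR adjusted p = 0.0003), the HES family member HES7 (1.495, edgeR adjusted p = 0.0051), the corepressor TLE2 (1.23, edgeR adjusted p = 0.00012) and CCND1, a cyclin (-1.18, edgeR adjusted p = 1.2e-14). CCND1 was at 121 ± 3.44 CPM in CRISPRi UT and 54.0 ± 2.41 CPM in CRISPRi Dox (SD, n = 3). In the same order DNER (1.30 and 0.363 CPM), APH1B (0.463 and 1.59), HES7 (0.2875 and 0.822) and TLE2 (0.793 and 1.88) were at low levels. Over all tested genes 3.81% were past 2-fold after doxycycline. Of 9 ligands 5 fell and 1 rose after doxycycline, where 18.9% of all tested genes fell and 20.7% rose. To be read against the same shares, 5 fell and 11 rose of 26 genes of receptor processing and trafficking. Of 8 coactivators 4 fell and 1 rose, of 19 corepressors 4 fell and 5 rose, and of 12 other targets 6 fell and 3 rose. HES7, APH1B and TLE2 differed between the systems by -1.87, -1.48 and -1.39, CCND1 and DNER by 1.38 and 1.35, and ID3, a target that inhibits bHLH proteins, by -1.19 (edgeR adjusted p = 0.026, 0.046, 0.0027, 8.0e-13, 0.012 and 0.0498 in turn). HES7 depended on CRISPRi Dox replicate 1, without which its rise was 1.06 (log2, adjusted p = 0.058). Its difference between the systems, and those of APH1B and ID3, lost the threshold in several fits that left out 1 library, with adjusted p reaching 0.087, 0.18 and 0.14.

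XACT deletion changed no tested member past the threshold. Of 8 tested members 0 passed in edgeR, where 0.206% of 16472 tested genes rose, 0.219% fell and 0.115% were past 2-fold in either direction. An unadjusted edgeR p below 0.05 was found for 4 of the 8, and for 2992 of the 16472 tested genes. With DESeq2 1 member passed, and the share of all genes that passed with DESeq2 is not given here. NOTCH2 came nearest. It was at 6.68, 5.78 and 7.61 CPM in NaiveCult WT and at 9.54, 9.29 and 10.8 CPM in XACT KO, without overlap (log2 0.57, SE 0.13, edgeR adjusted p = 0.058). It passed with DESeq2 (adjusted p = 0.0054) and under 3 other settings given in the closing section. NOTCH3 was at 4.12, 5.81 and 6.08 CPM and at 3.06, 4.15 and 3.93 CPM, which overlapped (log2 -0.51, edgeR adjusted p = 0.15). RBPJ was at 214 to 221 CPM and 202 to 238 CPM (log2 0.04, 95% interval -0.09 to 0.17, edgeR adjusted p = 0.83). Of 71 tested pathway genes 0 passed in edgeR, 8 had an unadjusted p below 0.05 and 2 passed with DESeq2. Of 7 tested mesenchymal or feeder fibroblast markers 0 passed in edgeR and 5 had an unadjusted p below 0.05 (median log2 -1.20). The 8 and the 5 are to be read against the 2992 of 16472 tested genes. The part of the fibroblast markers in the values of the members was not tested.

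The state comparisons gave the largest differences. In NaiveCult WT against Primed WT, from 1 set of tables, 2 of 9 tested members were higher and 7 lower, where 42.5% and 43.0% of 18663 tested genes were. Past 2-fold were 7 members, where 49.6% of genes were. The median log2 fold change of the members was -1.82 and that of all tested genes -0.013.

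NOTCH2 was at 189, 208 and 210.4 CPM in Primed WT and at 6.68, 5.78 and 7.61 CPM in NaiveCult WT (log2 -4.77, SE 0.079, edgeR adjusted p = 2.1e-15). HES1 was at 54.1, 47.7 and 41.4 CPM and at 2.34, 2.58 and 3.20 CPM (log2 -3.99, SE 0.16, edgeR adjusted p = 1.9e-11). HEYL was at 5.94, 6.59 and 6.98 CPM and at 0.195, 0.0930 and 0.225 CPM (log2 -5.08, SE 0.23, edgeR adjusted p = 6.1e-11). These 3 genes were far apart between the states, with no overlap. NOTCH3 (log2 -3.40), NRARP (-1.82), NOTCH1 (-1.71) and RBPJ (-0.54) were lower too, at edgeR adjusted p of 2.8e-11, 3.2e-11, 5.2e-10 and 5.4e-08. HES4 went the other way, from 3.57, 2.37 and 1.39 CPM in Primed WT to 40.2, 38.6 and 32.6 CPM (log2 4.11, SE 0.22, edgeR adjusted p = 3.5e-10). HEY1 was at 2.61 to 3.18 CPM and 2.90 to 4.30 CPM, which overlapped (log2 0.48, edgeR adjusted p = 0.021), and it did not pass with library totals as the only scaling (log2 0.33, adjusted p = 0.095), without Primed WT replicate 2 (log2 0.40, adjusted p = 0.083) or without NaiveCult WT replicate 2 (log2 0.35, adjusted p = 0.088).

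In PXGL WT against Primed WT 2 members were higher and 7 lower, where 43.1% and 44.4% of tested genes were, and 4 were past 2-fold, where 54.8% were. The median was -0.89 over the members and -0.028 over all tested genes. This pair spans the sets of tables, and the cell state and any difference between the sets cannot be told apart. HES4 was higher (log2 4.77, SE 0.22, edgeR adjusted p = 5.8e-11), as was NOTCH1 (log2 0.59, SE 0.087, edgeR adjusted p = 1.9e-05). HES1 was at 0.540, 0.213 and 0.276 CPM in PXGL WT (log2 -6.85, SE 0.21, edgeR adjusted p = 6.6e-13), and NOTCH2 was lower as well (log2 -2.83, SE 0.069, edgeR adjusted p = 7.2e-14). HEY1 (log2 -2.06), NRARP (-0.99), HEYL (-0.89), NOTCH3 (-0.80) and RBPJ (-0.22) were lower with edgeR adjusted p between 1.3e-08 and 0.00042. Against the same Primed WT libraries NOTCH1 and HEY1 therefore lay on opposite sides of 0 in the naive protocols. The median of genes with the transcript length and GC content of NOTCH1 changed side as well, as given below, while NOTCH3 of the same class did not.

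**Figure D5:**
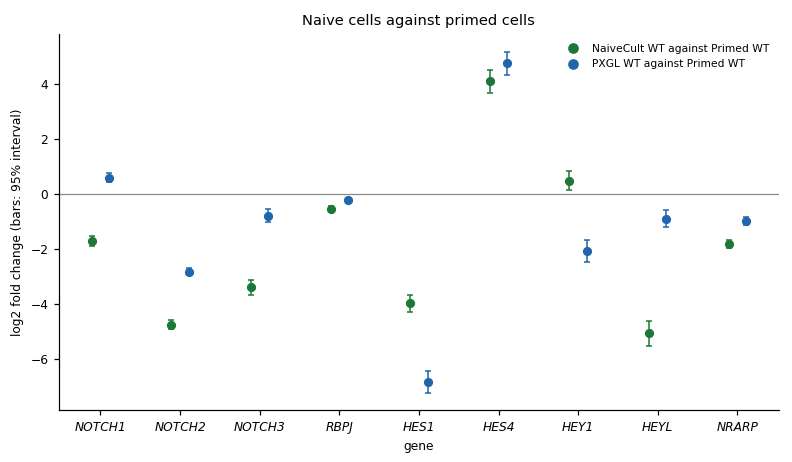
Log2 fold change of 9 members in naive cells of either protocol against Primed WT, with 95% intervals from 3 libraries a group. All points passed an edgeR adjusted p of 0.05. HES4 was above 4 in both protocols, HES1 and NOTCH2 were below -2.8 in both, and NOTCH1 and HEY1 changed side.

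Between the naive protocols the receptors were higher in PXGL WT. Relative to NaiveCult WT 7 members were higher and 2 lower, where 35.7% and 34.9% of tested genes were, and 6 were past 2-fold, where 27.4% were. The median over the members was 0.83. NOTCH1 was at 91.2, 88.0 and 92.0 CPM in PXGL WT and at 18.1, 18.8 and 20.3 CPM in NaiveCult WT (log2 2.30, SE 0.095, edgeR adjusted p = 9.3e-11). NOTCH3 (log2 2.61, SE 0.14, edgeR adjusted p = 1.4e-09) and NOTCH2 (log2 1.93, SE 0.078, edgeR adjusted p = 7.6e-11) followed it, and HEYL had the largest difference among the members (log2 4.18, SE 0.24, edgeR adjusted p = 2.2e-09). NRARP (0.83), HES4 (0.66) and RBPJ (0.32) were higher by less, and HES1 (log2 -2.86, SE 0.25, edgeR adjusted p = 1.8e-07) and HEY1 (log2 -2.54, SE 0.21, edgeR adjusted p = 8.0e-08) were lower. The HES4 call was lost with DESeq2 (log2 0.64, adjusted p = 0.066). The protocol and any difference between the sets of tables cannot be told apart here. Long GC-rich transcripts moved with this comparison. The 38 tested genes with a canonical transcript of 8 to 12 kb and a GC content of 60 to 65%, the class of NOTCH1 (9568 bases, 63.5%) and NOTCH3 (8680 bases, 63.1%), had a median log2 difference of 1.53 (quartiles 1.23 and 2.57), against 0.0021 for all tested genes. The same class had a median of -0.84 in NaiveCult WT against Primed WT and of 0.55 in PXGL WT against Primed WT, the sides on which NOTCH1 lay. NOTCH3 was below 0 in both (log2 -3.40 and -0.80). For all 1031 genes of 8 to 12 kb, the length of NOTCH2 (11425 bases, GC of 49.4%), the median between the naive protocols was 0.17. The part of transcript length and GC content in the receptor values was not tested.

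Markers of extraembryonic cells differed between the states as well. The 10 trophectoderm markers summed to 402 to 408 CPM in PXGL WT, 521 to 624 CPM in NaiveCult WT and 51.8 to 58.5 CPM in Primed WT, with 1 marker at 0 in Primed WT. The 8 hypoblast markers summed to 48.9 to 52.5, 81.4 to 95.9 and 124 to 127 CPM. Few of them carried the sum in Primed WT, where 6 of the 8 were under 1 CPM. Of 7 tested hypoblast markers 6 were higher and 1 lower in NaiveCult WT than in Primed WT (median log2 5.775), where 42.5% and 43.0% of all tested genes were. In PXGL WT 4 were higher and 1 lower (median 3.43), where 43.1% and 44.4% were. The 8 mesenchymal or feeder fibroblast markers summed to 17.3 to 20.5 CPM in PXGL WT, 34.2 to 44.5 in NaiveCult WT and 57.8 to 63.6 in Primed WT. Of these 8, 6 were under 1 CPM in PXGL WT and in Primed WT. Of 7 tested 1 was higher and 5 lower in PXGL WT than in NaiveCult WT (median log2 -4.83), where 35.7% and 34.9% of all tested genes were. The part of the trophectoderm, hypoblast and fibroblast markers in the values of the members was not tested.

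Of 74 tested pathway genes 29 were higher and 38 lower in NaiveCult WT than in Primed WT, where 42.5% and 43.0% of all tested genes were. In PXGL WT 40 were higher and 31 lower, where 43.1% and 44.4% were. In each pair the largest differences included NEURL1, a ubiquitin ligase for ligands (log2 7.30 and 7.45), the repressor gene HES2 (6.35 and 6.28) and MFAP5 (6.71 and 5.33) on the naive side, and FHL1, an RBPJ-binding LIM protein gene (-8.61 and -5.90), and APH1B (-7.19 and -7.34) on the primed side. MFNG, a glycosyltransferase of the receptors, was lower in NaiveCult WT (-5.73) and ID3 in PXGL WT (-6.63), each with an edgeR adjusted p at or below 9.1e-11. In PXGL WT against NaiveCult WT 40 were higher and 19 lower, where 35.7% and 34.9% of all tested genes were. FHL1 (2.71) was among the higher genes, with the acetyltransferase genes CREBBP (2.65) and EP300 (2.29) and the methyltransferase gene KMT2D (2.4), and ID3 was lower (-3.36), each with an edgeR adjusted p at or below 2.4e-07. SPEN was at 295 ± 5.44 CPM in PXGL WT, 72.4 ± 5.51 CPM in NaiveCult WT and 120 ± 20.3 CPM in Primed WT (SD, n = 3).

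DLL1, the only canonical ligand among the members, was listed at 0 in all 30 libraries. A count of 0 allows at most 0.0457 to 0.0962 CPM, taking 3 counts of each library total, and covers counting error only. Whether the 0 reflects the RNA or the annotation and symbols used for counting cannot be told apart, so this limit holds only if the reads of DLL1 were counted under its symbol. Of all listed genes 3289 (11.6%) were at 0 throughout. DLL1 lies on chromosome 6, 170282206 to 170306565, on the minus strand, where the lncRNA gene ENSG00000271234 overlaps it on the same strand and FAM120B on the other, and reads shared with the former may have been lost or split. No fold change was computed. On the same build (hg38, GENCODE 44) NOTCH1 lies on chromosome 9 at 136494433 to 136546048 and NRARP at 137299631 to 137302271, NOTCH2 on chromosome 1 at 119911553 to 120100779, NOTCH3 on chromosome 19 at 15159038 to 15200995 and HES1 on chromosome 3 at 194136148 to 194138732. HES4 (998962 to 1000172) and HEYL (39623435 to 39639643) are on chromosome 1. On their own strand NOTCH1 overlaps MIR4673 and NOTCH3 overlaps MIR6795. The members are protein-coding, and the reads were counted over their exons by strand.

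Across the 10 group means the members fell into different patterns, given here as a description, with groups that share libraries of one origin and with no test. On log2 CPM, NOTCH3 and HEYL were most alike (Pearson r = 0.96), NOTCH2 was most like NRARP (0.87), NOTCH1 most like NOTCH3 (0.85), and HES1 and HES4 were most unlike (-0.86). The spread of group means was largest for HES1 (SD 2.39), HEYL (1.72) and HES4 (1.5) and smallest for RBPJ (0.23). Among 14725 genes with a mean of at least 1 CPM, the genes whose pattern over the 10 groups was most like HES1 were LINC02315, BUB3 and MACROH2A1 (r = 0.987, 0.987 and 0.986), those most like HEYL were CNIH2, PLCG1 and CCDC88C (0.990, 0.987 and 0.985), and among those most like HES4 were QPCT and LOC641746 (0.998 and 0.997).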

How the data were processed

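The authors deposited 1 table of raw counts per library, whole reads per gene with no normalization, and replicates were not pooled. Per their methods, reads were trimmed, mapped to human hg38 and mouse mm10 with Bowtie 2, cleared of duplicates and of mouse feeder reads, and counted over exons by strand. The submitters' processing notes name Trim Galore 0.6.5, Picard 2.23.5 and HTSeq 0.13.5. Reads shared by near-identical genes or by overlapping genes of 1 strand were lost or split.

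CPM were computed from each library total (31.2 to 65.6 M counts). Differences were tested with edgeR 4.0.16 in R 4.3.3 (quasi-likelihood F-test, TMM factors, filterByExpr with a minimum count of 10 and a minimum total of 15), with Benjamini-Hochberg adjustment over all tested genes. A gene passed at an adjusted p below 0.05. The SE of a fold change was derived from it and the F statistic, and 95% intervals are normal intervals around it. The siRNA groups shared a fit, as did the XIST and CRISPRi groups, and NaiveCult WT, Primed WT and PXGL WT. NaiveCult WT and XACT KO were fitted alone. The script was tested on simulated data. Alternatives were DESeq2 1.42.0, other scalings and filters, a replicate block, other sets of libraries in the fit, and leaving out each library. Gene positions and lengths are from GENCODE 44, promoters from RefSeq (GRCh38.p14). All members were named, and of the other pathway genes, per comparison, at most the 6 with the largest change among those past 2-fold. Likeness used the 3 members with the largest spread of group means of log2 CPM (prior count 2). Members and lists were chosen with earlier results of these data known. The levels of XIST and some genes that these rules pick are not reported here.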

Additional observations from a re-analysis of the deposited data

Results flagged for a closer look

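A set of 10 results was flagged because effects under matched contrasts differed by a direct test in edgeR. Such differences were common over all tested genes. With siSPEN2 18.3% were higher and 16.3% lower than with siSPEN1, and 21.8% differed between the deletion and doxycycline. XIST KO was 1 clone in technical replicates, and its small spread was pooled with that of the CRISPRi groups in the fit. The siRNA mixes did not differ detectably in SPEN (log2 -0.07), while siSPEN2 minus siSPEN1 was 0.345 (log2) for RBPJ, 0.366 for NOTCH2, 0.381 for NOTCH3, 1.00 for HEYL and -0.758 for NRARP, with adjusted p of 3.3e-06, 0.00031, 0.00017, 0.00066 and 1.4e-07, and in each case the 3 libraries of either mix did not overlap. The effect of XIST deletion minus that of doxycycline was 0.274 for NOTCH1, 0.710 for NOTCH2, -0.573 for NOTCH3, 0.612 for HES4 and -2.11 for HEY1 (log2), with adjusted p of 0.0059, 1.2e-06, 0.00011, 0.00073 and 0.0060.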

How the results depend on the processing

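Every call of the members that is past 2-fold kept its direction and its side of the threshold under each alternative run, from DESeq2 to leaving out single libraries. Levels are scaled by library totals and fold changes by TMM factors, so ratios of printed levels can differ from the fold changes. With TMM-scaled CPM 20 group means of members moved by more than their SD and 80 did not. RBPJ in Primed WT was at 333 to 362 CPM by library total and 281.5 to 311 CPM with TMM factors. Depth limits HES1, HEY1 and HEYL, near or under 1 CPM in several groups, and 3 libraries a group limit every test. It also limits the pathway genes APH1B, DNER, HES7 and TLE2, each under 1 CPM in a group compared here. The number of members that passed in XACT KO against NaiveCult WT went from 0 to 1 with DESeq2, with no filter on low counts, with the replicate block and with Primed WT added to the fit (NOTCH2 in each), and ranged from 0 to 1 when single libraries were left out, the 1 being NOTCH3 (log2 -0.67, adjusted p = 0.047) without NaiveCult WT replicate 1. Without siSPEN1 replicate 2, 5 members passed in siSPEN1 against siScr and 3 in the full set (range 3 to 5), with NOTCH1 and HEYL added. With the replicate block, 4 members passed with siSPEN1 (NOTCH1 added), 6 with siSPEN2, 2 in XIST KO and 4 after doxycycline. Same-numbered libraries did not deviate together (correlations of -0.068 to 0.085), so the numbers were not taken as pairs. Values that changed sign when a library was left out were short of the threshold in every such fit, and the cause was not tested. Their lowest and highest log2 values were -0.28 to 0.20 (HEY1, siSPEN1), -0.0134 to 0.0659 (NOTCH1, siSPEN2), -0.00153 to 0.0212 (RBPJ), -0.117 to 0.0691 (HES4), -0.485 to 0.0206 (HEY1), -0.106 to 0.0421 (HEYL) and -0.0309 to 0.0638 (NRARP, the last 5 in XIST KO), -0.0731 to 0.0058 (RBPJ, doxycycline), -0.31 to 0.66 (HES1, deletion minus doxycycline), and -0.0243 to 0.102 (RBPJ) and -0.206 to 0.0744 (HEY1) in XACT KO.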

Other observations

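The scrambled siRNA control did not have the member levels of untransfected PXGL cells. RBPJ was at 178 to 190.3 CPM in siScr and 258 to 267 CPM in PXGL WT, HEYL at 0.824 to 1.09 and 2.89 to 3.26 CPM, NOTCH3 at 21.2 to 24.3 and 30.01 to 33.6 CPM, and HES4 at 37.6 to 48.8 and 49.9 to 65.6 CPM. NOTCH1 lay the other way, at 125 to 128 CPM in siScr and 88.0 to 92.0 CPM in PXGL WT. In siSPEN2 the means of RBPJ (312 CPM), HEYL (2.69), NOTCH3 (33.3) and HES4 (60.8) were each nearer to PXGL WT than to siScr, as were those of RBPJ (242) and HES4 (55.4) in siSPEN1. Nearer to siScr were HEYL (1.32) and NOTCH3 (25.2) in siSPEN1 and NOTCH1 with either mix (137 and 129). NOTCH2 in siSPEN2 (30.3) was above siScr (25.7) and PXGL WT (24.6), as was NRARP in siSPEN1 (25.6, against 19.0 and 17.4). The share of all genes nearer to PXGL WT is not given here. The groups come from different sets of tables and differ in transfection, which cannot be told apart, and the difference was not tested.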
